A study of Mus musculus with 80 samples.

Results

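Of 10903 barcoded reporters integrated across the genome of mouse embryonic stem cells, 924 gave RNA without doxycycline (dox) and none at 0.1 ng/ml, and these lost reporters are described here. They were chosen by counts of barcode reads. A reporter had to have at least 100 reads from genomic DNA in each of the 8 DNA libraries of its pool, which 7415 reporters had. It also had to have at least 10 RNA reads in both cultures without dox, which left 7242 reporters, called measurable below. The lost reporters had 0 RNA reads in both cultures at 0.1 ng/ml. They made up 12.8% of the measurable reporters, with 249 in pool A, 216 in pool B, 213 in pool C and 246 in pool D. Because the RNA at dox 0 and 0.1 chose them, their values at those doses are a description. Other measurable reporters serve for comparison: 5093 kept reporters, with RNA in both cultures at dox 0.1, and 1225 reporters with RNA in only 1 of them.

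All samples were of the mouse embryonic stem cell line EBRTcH3, in which the ROSA26 promoter drives the transactivator tTA, grown with leukemia inhibitory factor, the MEK inhibitor PD0325901 and the GSK-3 inhibitor CHIR99021. Every pool carried a piggyBac tet-Off reporter library in cells sorted for low eGFP and was expanded from a small number of cells. Each of the 4 pools was divided into 2 cultures, and parts of each culture were kept for 72 h without dox or with dox at 0.01, 0.1 or 100 ng/ml, so that a group is 1 pool at 1 dose with 2 cultures. The labels call the 2 cultures technical replicates, and the growth protocol also names a PGK promoter, whereas the titles and the plasmid say tet-Off.

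In a tet-Off system, tTA binds operator sequences beside a minimal promoter and switches it on, and dox makes tTA let go of the DNA. In the TRIP assay, very many copies of the same reporter are integrated in parallel, and each copy carries a random barcode in its transcript. Barcode reads from RNA relative to those from DNA give the expression of each copy, and inverse PCR gives its place. The copies share their promoter and tTA, so a comparison between them asks how a reporter's place in the genome goes with its activity at each dose.

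RNA libraries held 729552 to 1840870 reads and DNA libraries 928128 to 1571280. The level used below is the log2 ratio of a barcode's share of the RNA reads to its share of the DNA reads, with 1 read added to each count, averaged over the 2 cultures. It is relative to the other reporters of the same library, and a fall common to all reporters is not seen in it. The assay is bulk, so fewer cells with active reporters and less RNA per cell cannot be told apart.

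The barcode is what tells these copies apart, and most barcodes have 16 bases. The 10 lost reporters with the highest level without dox are shown first, since they were the most active copies among those lost. Positions are from the deposited table, in mm9, and each barcode is written in lower case with no base marked.
Pool D, chromosome 7, position 4421765, plus strand: agtccgaactccggtt
Pool A, chromosome 2, position 27481021, minus strand: aagcaaagacggagaa
Pool A, chromosome 5, position 113093520, minus strand: aggttcacctttgcgca
Pool C, chromosome 2, position 122150506, minus strand: cattctagcgtctttc
Pool B, chromosome 9, position 31702681, minus strand: tcatgttcatccccgg
Pool B, chromosome 6, position 21812361, minus strand: caggttcgcatttatt
Pool A, chromosome 15, position 72991083, minus strand: ccgaaaaatgacttag
Pool A, chromosome 6, position 143574972, plus strand: tatgcgcagaaatgat
Pool A, chromosome 14, position 75629586, plus strand: acctgtgctcagattc
Pool A, chromosome 14, position 49669193, minus strand: gacgttaaccagaatca

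The 8 lost reporters that had RNA again in both cultures at 100 ng/ml are shown in the same way, since they are the exceptions among the 924 at that dose. The choice did not read the RNA at 100 ng/ml.
Pool D, chromosome 3, position 108504305, minus strand: gttcatagttaagtct
Pool A, chromosome 3, position 131850309, plus strand: agcattttagaaccaa
Pool D, chromosome 14, position 50067649, minus strand: tcgcaccacgtacaca
Pool B, chromosome 15, position 81847236, plus strand: ttttccggaattaacc
Pool B, chromosome 10, position 123166583, plus strand: gggggcttcggctgcg
Pool C, chromosome 2, position 26786175, minus strand: agctactctagcaatg
Pool A, chromosome 14, position 70853529, plus strand: ctccggtatgagagta
Pool A, chromosome 3, position 84778246, plus strand: tacatattataggcct

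The lost barcodes differed from the kept in composition and orientation by less than the spread between pools. Their mean GC content was 41.5% ± 0.88 (SD, n = 4 pools), against 41.2% ± 0.106 in the kept reporters. A share of 49.0% ± 2.83 lay on the plus strand, against 49.1% ± 1.80 of the kept. The lost barcodes also seen in another pool were 70 of 924, or 7.58%, against 7.72% of the kept.

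Without dox, the lost reporters were weakly but measurably active. Their RNA counts ran from 10 to 647 in culture 1, with a median of 63.5, and from 10 to 835 in culture 2, with a median of 72. Kept reporters had medians of 572 and 621. On the log2 scale the lost reporters had a median level of −2.93 ± 0.104 (SD, n = 4 pools), and the kept had one of −0.14 ± 0.0383. The lost reporters therefore sat near the bottom of the range, and the groups overlapped: 25.03% of the kept lay below −1.24, the level that 90% of the lost reporters did not pass. Levels of the lost reporters ran from −6.86 to 0.84, with the middle 50% between −3.84 and −1.97.

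The share of reporters lost fell steeply with the level at dox 0. Within each pool the measurable reporters were put into deciles by that level, with decile 1 the lowest. In decile 1, 348 of 725 reporters were lost, or 48.0%, and in decile 2, 236 of 724, or 32.6%. The share was 7.18% in decile 5 and 1.52% in decile 7. In decile 10, 0 of 725 were lost. Taken as 3 of 725, this allows a share of up to 0.414% by counting error alone. That bound treats reporters as independent, although they share pools and libraries. Decile 1 also held 141 kept reporters, with a median level of −3.87 at dox 0 against −4.09 in the lost of that decile. DNA abundance went the same way: 18.01% of reporters were lost in the lowest quintile of DNA abundance and 5.59% in the highest. Fewer DNA copies give fewer RNA reads, and the part of this in the loss was not tested beyond the values below.

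**Figure D1:**
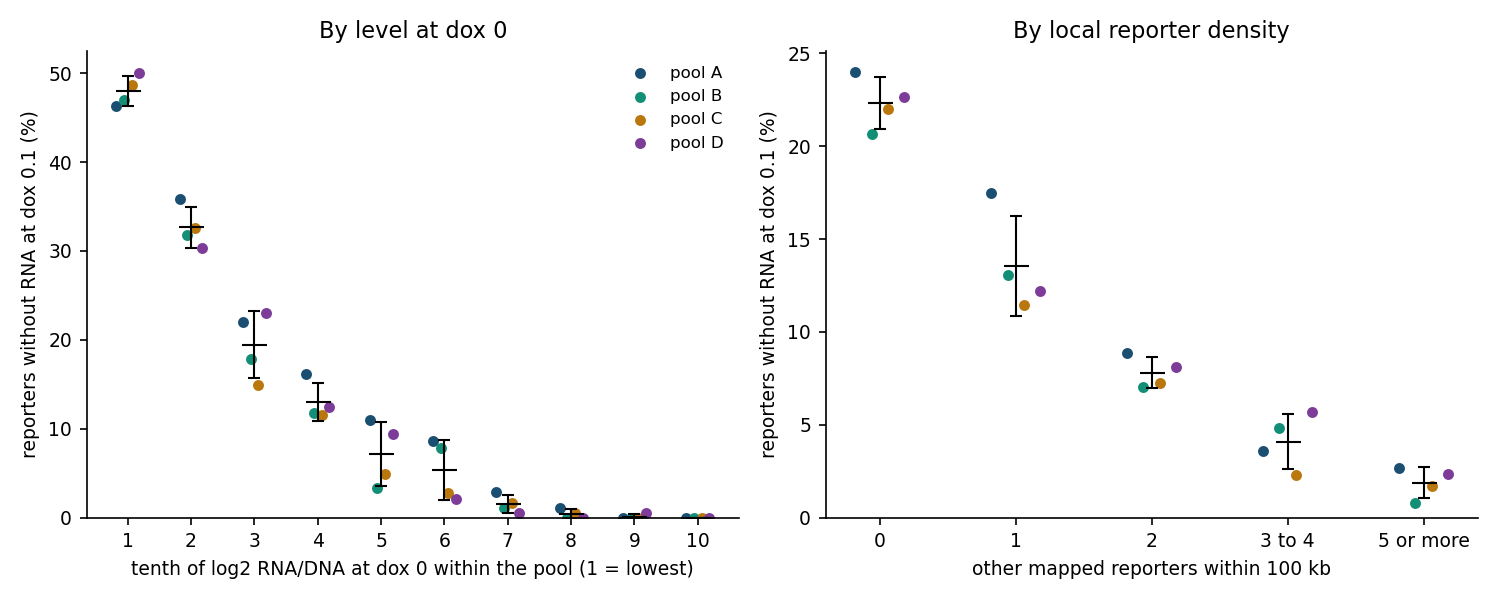
Share of measurable reporters without RNA at dox 0.1 (y axes, percent), by decile of the level at dox 0 within the pool (left) and by the number of other mapped reporters within 100 kb (right). Dots are the 4 pools and black bars their mean and SD; the share falls from 48.0% to 0% over the deciles and from 22.3% to 1.93% over the density bins.

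At dox 0.1 the 2 cultures of a pool were often at 0 for the same reporter. Where a reporter had 0 reads at dox 0.1 in 1 culture, chosen by that culture alone, it had 0 in the other in 63.0% ± 2.19 of cases (SD, n = 4 pools, mean of the 2 directions). Where it had RNA in the first culture, it had 0 in the other in 10.6% ± 0.956. The difference was 52.4 ± 2.78 percentage points. These are the values the choice used, so they describe how far the cultures of a pool went together and are given without a test. Culture 2 had more reporters at 0 in every pool, with 442 against 364 in pool A, 396 against 314 in pool B, 487 against 292 in pool C and 534 against 315 in pool D. The dox 0.1 RNA libraries of culture 2 were also shallower in pool C, with 801265 reads against 1112042, and in pool D, with 931587 against 1318564. The gap was small in pool B, with 1162306 reads against 1246388, and absent in pool A, with 1691627 against 1645817. The part of depth in the number at 0 was not tested.

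A count of 0 bounds the fall. Against a floor of 3 reads over the 2 cultures, and relative to DNA and library totals, the lost reporters were at least 35.9-fold lower at dox 0.1 than at dox 0 in the median. The bounds ran from 3.44-fold to 585-fold, and 843 of 924 were at least 10-fold lower. The reads come from PCR without molecular identifiers, and these bounds and those below cover counting error only. The 1225 reporters at 0 in only 1 dox 0.1 culture had a median of 24 reads in the other, and up to 332. With zeros set at their bound the median change of the lost reporters was −5.17 on the log2 scale. In the edgeR fit of this contrast 869 of 924 were lower at an adjusted p below 0.05, beside 19.8% of all reporters tested, but these are the libraries that chose the reporters.

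The pool D reporter at 4421765 on chromosome 7 had the highest level among the lost, 0.84, in decile 9 of its pool. It gave 547 and 693 RNA reads at dox 0, 316 and 352 at dox 0.01, and 0 in all 4 libraries at dox 0.1 and 100. By counting error alone the fall at dox 0.1 was at least 275-fold, while the copy had 170 and 247 DNA reads there. The pool A reporter at 27481021 on chromosome 2 had 441 and 618 RNA reads at dox 0, 301 and 353 at dox 0.01, none at dox 0.1, and 66 and 0 at dox 100. Only at the highest dose did 1 culture of that reporter have RNA and the other none. In level its cultures already differed, at 0.18 and 1.02 at dox 0 and −0.52 and 0.47 at dox 0.01. The pool A reporter at 75629586 on chromosome 14 had 529 and 600 reads at dox 0 and 179 and 216 at dox 0.01. It had none at either higher dose, a fall at dox 0.1 of at least 378-fold by counting error alone. The pool B reporter at 31702681 on chromosome 9 went from 601 and 556 reads over 214 and 268 to none, and had 47 and 0 at dox 100. Of the 10 highest, 7 had no read at dox 100 in either culture.

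**Figure D2:**
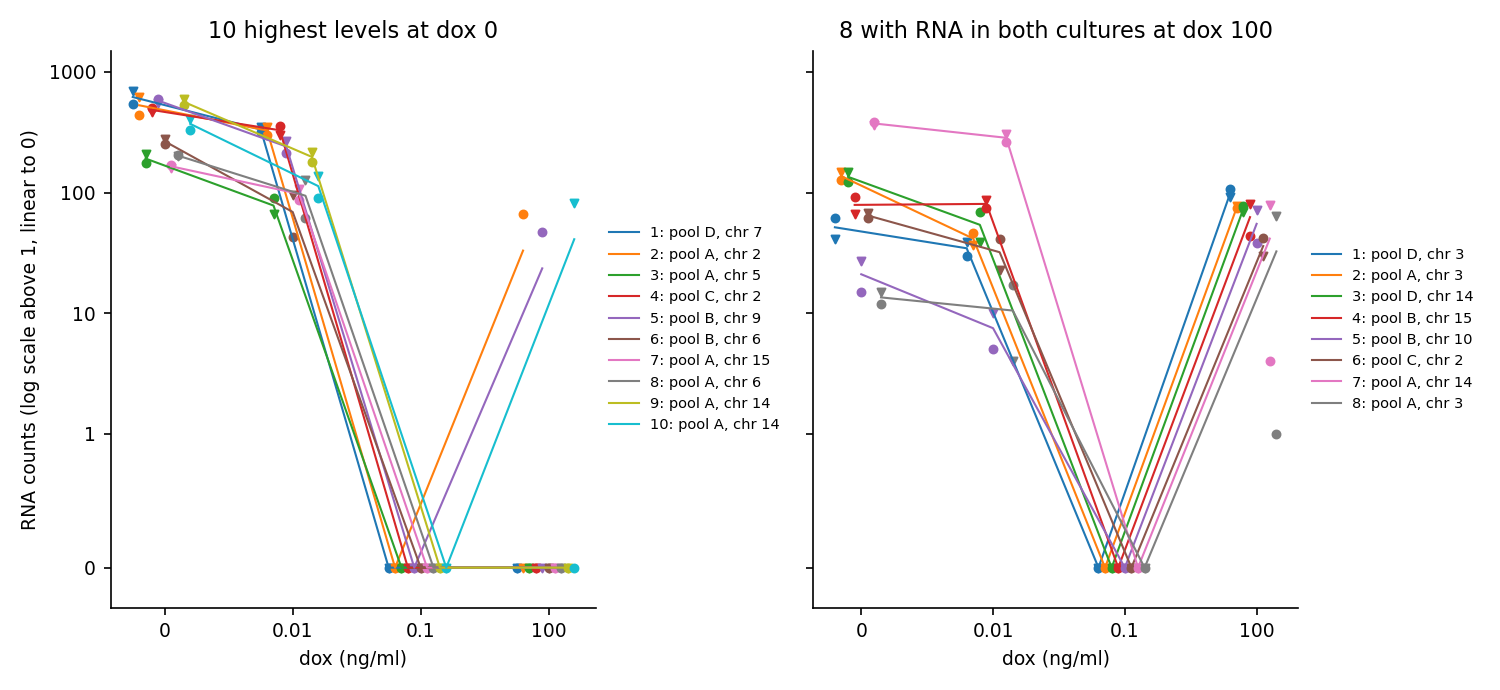
RNA counts (y axis, log scale above 1 and linear down to 0) at the 4 dox doses (x axis) for the 10 lost reporters with the highest level at dox 0 (left) and the 8 with RNA in both cultures at dox 100 (right), labelled by pool and chromosome. Circles are culture 1, triangles culture 2, and lines join the means of the 2 cultures; all 18 stand at 0 at dox 0.1, where the choice put them.

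The thresholds of the choice were crossed narrowly by some reporters on either side. Among the lost, 33 had 10 to 12 reads in their lower dox 0 culture, such as the pool B reporter at 109833602 on chromosome 14 with 10 and 16. That reporter had 0 and 2 reads at dox 0.01. Just outside stood 117 reporters with 0 reads in both dox 0.1 cultures and fewer than 10 in a dox 0 culture, such as the pool A reporter at 127042176 on chromosome 5, with 10 and 9. Of the 1225 reporters with RNA in 1 dox 0.1 culture, 46 had only 1 read there and 69 had at most 3, and the median was 24. The pool A reporter at 68005488 on chromosome 17 had 271 and 347 reads at dox 0, 129 and 151 at dox 0.01, and 1 and 0 at dox 0.1. Among these 1225, which had RNA in 1 culture by definition, the count there was thus mostly well above 1.

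At 0.01 ng/ml, where the choice read the DNA minimum but no RNA, the lost reporters had low levels relative to the rest. Their median RNA counts were 33 in culture 1 and 31 in culture 2, with ranges of 0 to 376 and 0 to 353. RNA was seen in both cultures for 904 of them and in 1 culture for 20. Their median level was −3.93 ± 0.142 (SD, n = 4 pools) against −0.31 ± 0.0731 for the kept, and the reporters with RNA in 1 dox 0.1 culture lay between, at −2.74 over all pools. The difference of lost minus kept was −3.62 ± 0.134 on the log2 scale, below 0 in 4 of 4 pools (exact two-sided sign-flip permutation test over pools, p = 0.13, the smallest that 4 pools allow). Benjamini-Hochberg adjustment over the 6 pool-level comparisons computed left this p, and those below, as they were. Much of this gap was there at dox 0. Against kept reporters in the same quartile of the dox 0 level it was −1.29.

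The step from dox 0 to 0.01 shows the movement directly, though the dox 0 libraries are those that chose the reporters. By library totals the median change was −1.01 in the lost, −0.74 in those with RNA in 1 dox 0.1 culture and −0.15 in the kept. The median change of the kept turned to 0.05 under TMM scaling in edgeR, while that of the lost stayed below 0 at −0.77. Over all 10785 reporters tested the median was −0.12 under TMM and −0.33 by library totals. A lower level at dox 0.01 in both cultures was seen in 678 of 924 lost reporters, or 73.4%, beside 47.4% of all measurable reporters and 38.1% of the kept. The lost reporters that were higher in both numbered 23, or 2.49%, against 23.03% of the kept.

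Within each of deciles 1 to 9 of the dox 0 level the lost reporters had a lower median at dox 0.01 than the kept. In decile 1 the median level at dox 0.01 was −5.09 for the lost and −4.10 for the kept, a difference of −0.99. In decile 3 it was −3.21 against −2.43, and in decile 6 −1.75 against −0.79. Over the 6 lowest deciles, each with at least 38 lost reporters, the difference ran from −1.09 to −0.78. Deciles 7, 8 and 9, with 11, 3 and 1 lost reporters, gave −1.36, −0.43 and −0.64. Part of each gap was there at dox 0, where the lost median was also the lower in deciles 1 to 9. It was −4.09 against −3.87 in decile 1, −2.16 against −2.14 in decile 3 and −0.58 against −0.54 in decile 6. DNA abundance was not held fixed within deciles. The lost reporters also kept their order among themselves: the levels at dox 0 and 0.01 had a Pearson r of 0.84 over 924 reporters, which share libraries and the depth of their barcodes. Between the 2 cultures r was 0.81 at dox 0 and 0.75 at dox 0.01, against 0.91 and 0.93 in the kept, whose counts were higher.

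Tested reporter by reporter with edgeR's quasi-likelihood test, 0 of 924 were lower and 0 higher at dox 0.01 than at dox 0 after Benjamini-Hochberg adjustment, beside 0% and 0.0185% of the 10785 reporters tested. At an unadjusted p below 0.05 there were 96 lost reporters, or 10.4%, all of them lower, beside 4.93% of all reporters in either direction. DESeq2's Wald test found 45 lost reporters lower and 0 higher, beside 0.732% and 0.315% of all. The choice set a minimum on the RNA reads at dox 0 and none at dox 0.01. Falls are thereby favoured among the lost, and the counts of both tests are a description. The largest fall was that of the pool A reporter at 138897102 on chromosome 6, with 27 and 32 reads at dox 0 and 1 and 0 at dox 0.01 (log2 change −5.22, edgeR adjusted p = 0.346). The pool C reporter at 13422716 on chromosome 9 went from 13 and 15 reads to 1 and 0 (log2 change −5.11, edgeR adjusted p = 0.838). The largest increase was that of the pool B reporter at 4994373 on chromosome 18, with 48 and 59 reads at dox 0 and 77 and 76 at dox 0.01 (log2 change 1.30, edgeR adjusted p = 1.00). None of these single reporters passed the test, and both falls rest on a few reads.

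**Figure D3:**
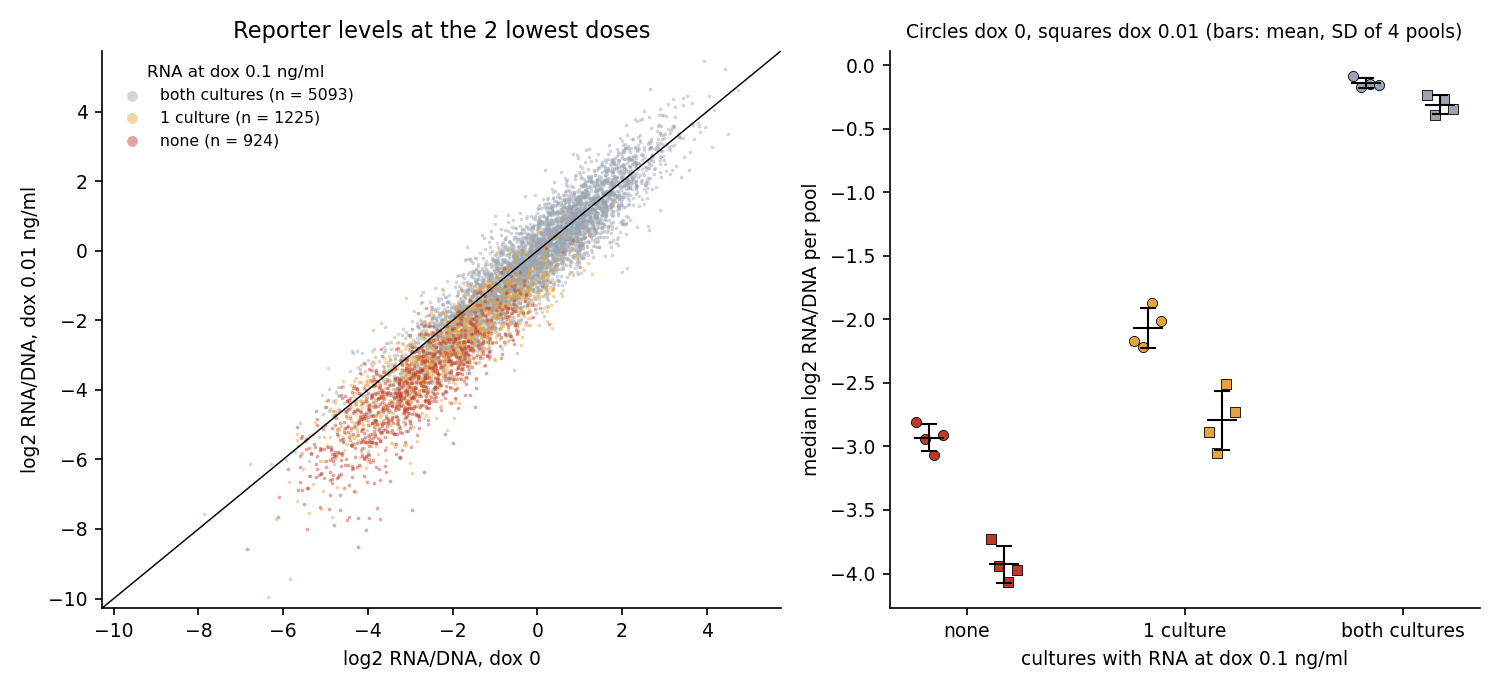
Level (log2 RNA/DNA) of each measurable reporter at dox 0 (x axis) and 0.01 ng/ml (y axis), with the line of equal level (left), and the median level per pool at both doses (right; circles dox 0, squares dox 0.01, bars the mean and SD of 4 pools). Colours give the cultures with RNA at dox 0.1; the reporters with none lie low on both axes and mostly below the line, with medians of −2.93 at dox 0 and −3.93 at dox 0.01.

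At 100 ng/ml, the highest dose, most of the lost reporters stayed silent. No RNA was seen in either culture for 790 of 924, or 85.5%, beside 42.8% of all measurable reporters and 28.4% of the kept. RNA in 1 culture was seen for 126, or 13.6%, and in both for 8, or 0.866%. In the kept reporters the shares were 23.2% in 1 culture and 48.4% in both. RNA in either culture was found for 14.5% ± 2.92 of the lost (SD, n = 4 pools) and 71.7% ± 0.366 of the kept. The difference was −57.2 ± 2.58 percentage points for either culture and −47.6 ± 1.60 for both, below 0 in 4 of 4 pools (exact two-sided sign-flip permutation test, p = 0.13 for each, the smallest possible; adjusted p = 0.13). Against kept reporters of the same quartile of the dox 0 level these differences were −45.8 and −33.6 points. DNA abundance was not held fixed: within these quartiles lost minus kept was −0.59 in log2 DNA abundance. Its part in the RNA seen at dox 100 was not tested.

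The share with RNA at dox 100 differed little between quartiles of the lost by dox 0 level. In the lowest quartile 12.02% had RNA in either culture, and in the others 13.9%, 18.3% and 13.9%. Median DNA abundance fell over the same quartiles, from 397.5 CPM (DNA reads scaled to library totals) to 334.2, 305.5 and 255.7. It was not held fixed, so these shares do not show the part of activity alone, which was not tested. Among kept reporters the share rose from 53.2% in decile 1 to 86.3% in decile 10. In decile 1, where lost and kept had medians of −4.09 and −3.87 at dox 0, the share was 10.9% in the lost. Where a lost reporter had RNA in 1 dox 100 culture, the count there was not small: it ran from 1 to 300 with a median of 70.5, and 15 of 126 had at most 10. The median in the kept was 69. The culture with RNA was culture 1 for 66 and culture 2 for 60.

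**Figure D4:**
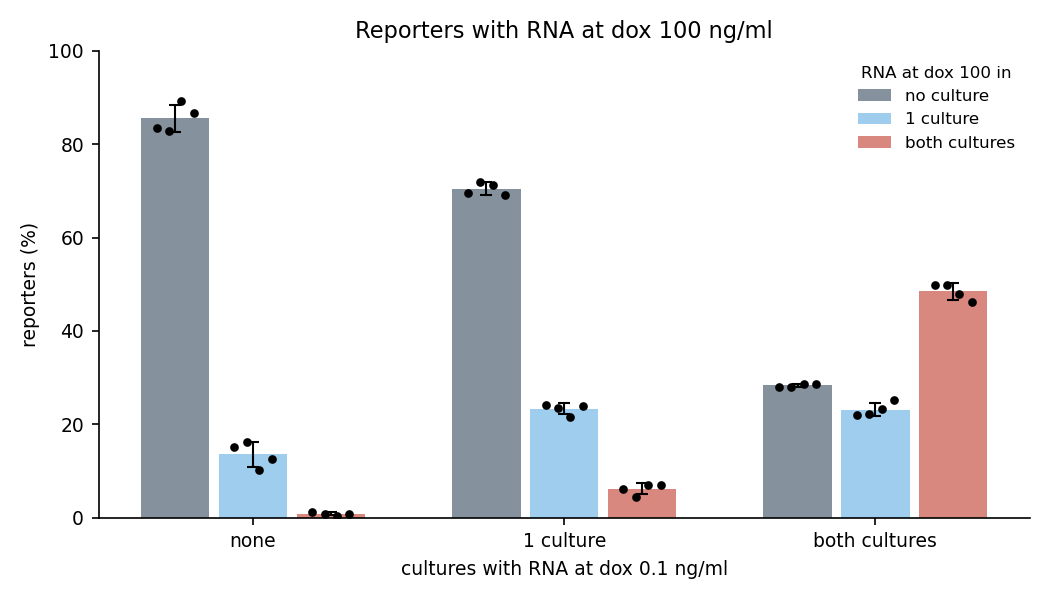
Share of reporters (y axis, percent) with RNA at 100 ng/ml in no culture, 1 culture or both cultures, for reporters with RNA in none, 1 or both of the dox 0.1 cultures (x axis). Bars are means and error bars SDs of 4 pools, and dots are the pools; of the reporters with none at dox 0.1, 85.5% had none at dox 100, against 28.4% of those with RNA in both.

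The choice read none of the RNA libraries at dox 0.01 and 100, and of the DNA libraries at these doses it used the minimum of 100 reads. The change between these doses was tested relative to that DNA, in the fit over all 16 libraries of a pool. The spread behind its p-values was thus estimated also from the dox 0 and 0.1 RNA libraries that chose the reporters. In edgeR's quasi-likelihood test 753 of 924 lost reporters were lower at an adjusted p below 0.05 and 5 were higher, beside 48.2% lower and 9.91% higher of the 10785 tested. The median log2 change was −7.10 in the lost and −3.80 over all reporters, on a scale where 0 reads make the value depend on the prior count. With the 790 zeros at their bound of 3 reads the median of the lost was −3.66. These 790 were at least 15.1-fold lower in the median, 764 of them at least 2-fold and 524 at least 10-fold. The bounds ran from 0.27-fold to 326-fold, so at the low end 0 reads did not show a fall. The pool D reporter on chromosome 7 described above fell the most, at least 326-fold by counting error alone. Next came the pool D reporter at 95623661 on chromosome 11, with 376 and 243 reads at dox 0.01 and none at dox 100. It was at least 229-fold lower by the same kind of bound (edgeR adjusted p = 4.37e-05).

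The 8 lost reporters with RNA in both dox 100 cultures differed widely in how many reads they gave. The pool D reporter at 108504305 on chromosome 3 had 62 and 41 reads at dox 0, 30 and 39 at dox 0.01, 0 and 0 at dox 0.1, and 106 and 92 at dox 100. Both cultures at dox 100 were thus above every lower dose in reads, and relative to DNA and the other reporters the rise from dox 0.01 was 2.69 ± 0.73 on the log2 scale (SE; edgeR adjusted p = 0.00955). The pool A reporter at 131850309 on chromosome 3 had 126 and 147, 46 and 37, 0 and 0, and 74 and 77 reads at the 4 doses (rise 2.04 ± 0.39, SE; edgeR adjusted p = 0.00131). It is an abundant copy, with 1737 and 2067 DNA reads at dox 100.

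The pool B reporter at 123166583 on chromosome 10 had 15 and 27 reads at dox 0, 5 and 10 at dox 0.01, 0 and 0 at dox 0.1, and 38 and 72 at dox 100 (rise from dox 0.01 of 4.90 ± 0.72, SE; edgeR adjusted p = 0.000258). The pool D reporter at 50067649 on chromosome 14 had 69 and 39 reads at dox 0.01 and 78 and 69 at dox 100, and its value of 1.37 ± 0.67 (SE) did not pass (edgeR adjusted p = 0.104). The pool C reporter at 26786175 on chromosome 2 had 41 and 23 reads at dox 0.01 and 42 and 30 at dox 100 (0.67 ± 0.71, SE; edgeR adjusted p = 0.441). In the pool A reporters at 70853529 on chromosome 14 and 84778246 on chromosome 3 the cultures were far apart at dox 100, with 4 against 79 and 1 against 64 reads. For those, RNA in both cultures rests on a few reads in culture 1.

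The other 2 reporters called higher at dox 100 than at 0.01 had RNA in only 1 of the dox 100 cultures. The pool C reporter at 13422716 on chromosome 9 had 1 and 0 reads at dox 0.01 and 0 and 77 at dox 100 (log2 change 7.15 ± 2.17, SE; edgeR adjusted p = 0.0163). Without culture 2 at dox 100 its value turned to −1.59, and without culture 1 or 2 at dox 0.01 it was 8.54 and 6.65 and did not pass (edgeR adjusted p = 0.0831 and 0.1002). The pool D reporter at 87589168 on chromosome 18 had 6 and 2 reads at dox 0.01 and 66 and 0 at dox 100 (4.90 ± 1.87, SE; edgeR adjusted p = 0.0431). Without culture 1 at dox 100 its value turned to −4.39, and with the culture number as a block it was 4.37 (edgeR adjusted p = 0.112). The call was also lost by library totals (3.56, edgeR adjusted p = 0.109), with DESeq2 size factors (4.1, edgeR adjusted p = 0.0744) and without culture 1 or 2 at dox 0.01 (5.12 and 4.82, edgeR adjusted p = 0.174 and 0.173). The call for the pool D reporter at 108504305 on chromosome 3 was lost by library totals (1.39, edgeR adjusted p = 0.113) and without culture 1 at dox 0.01 (2.18, edgeR adjusted p = 0.0865) or dox 100 (1.63, edgeR adjusted p = 0.138). The calls for the pool A reporter on chromosome 3 and the pool B reporter on chromosome 10 passed under every alternative run. Over all lost reporters, the number called higher was 27 without culture 1 at dox 100 and 29 without culture 2, and 2 and 3 without culture 1 or 2 at dox 0.01.

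The lost reporters lay in sparser stretches of the map. A mean of 0.747 ± 0.0726 other reporters of the table, from any pool, lay within 100 kb of a lost reporter (SD, n = 4 pools), against 1.94 ± 0.0878 around a kept one. No other reporter lay within 100 kb for 53.3% ± 3.43 of the lost and 23.6% ± 1.44 of the kept. The difference of the median number was −1.12 ± 0.25 reporters, below 0 in 4 of 4 pools (exact two-sided sign-flip permutation test, p = 0.13, the smallest possible; adjusted p = 0.13). Within quartiles of the dox 0 level it was −0.68, and within 1 Mb it was −4.25. Medians of such small whole numbers move in steps: with a window of 10 kb the difference was 0, and with reporters chosen by culture 2 alone it was 0, while the difference of the means was −1.20 for the main choice.

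The reporter that lay nearest was at a median of 111 kb from a lost reporter and 35.5 kb from a kept one. Of reporters with another within 10 kb, 4.32% were lost. The share was 10.4% at 10 to 100 kb and 21.9% at 100 kb to 1 Mb, and 16 of the 34 with none within 1 Mb were lost. By number within 100 kb, the share lost fell from 22.3% with none to 13.5% with 1, 7.81% with 2, 4.14% with 3 to 4 and 1.93% with 5 or more. Part of this went with the level at dox 0, which also differs between lost and kept. In the lowest quartile of that level the shares were 44.6%, 35.4%, 23.6%, 20.0% and 13.9% in the same order. Level still varied within that quartile, with 48.0% lost in decile 1 and 32.6% in decile 2, and DNA abundance was not held fixed. The part of either in the fall with density was not tested. The last of the density bins in that quartile held 36 reporters. DNA abundance was lower in the lost by 0.39 ± 0.163 in log2 CPM, the log2 of DNA reads scaled to library totals (SD, n = 4 pools), and by 0.59 within quartiles of the dox 0 level, given without a test because the choice set a minimum on DNA reads.

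Neighbours integrated in other pools were lost in a larger share of pairs around lost than around kept reporters, a difference that was not tested. Within 10 kb of a lost reporter, 6 of 37 pairs with a measurable neighbour from another pool had a lost neighbour, or 16.2%, against 17 of 858 pairs, or 1.98%, around kept reporters. The 6 are 3 pairs of lost reporters counted from both ends, and over pools the share was 15.9% ± 13.3 (SD, n = 4 pools) with the lowest pool at 0. From 10 to 100 kb the neighbour was lost in 16.9% ± 3.39 of pairs around lost reporters (SD, n = 4 pools) and 3.798% ± 1.22 around kept. From 100 kb to 1 Mb it was lost in 15.3% ± 2.08 and 8.35% ± 0.733. These neighbours were also less active, with a median level at dox 0 of −1.44 within 10 kb of a lost reporter against 0.27 near a kept one. Among neighbours in the lowest quartile of the dox 0 level, the shares lost at 10 to 100 kb were 34.5% around lost and 18.8% around kept reporters. At 100 kb to 1 Mb, where most pairs lay, they were closer, at 37.15% and 29.3%. Within 10 kb they were 35.7% of 14 pairs and 12.8% of 94. Pairs share reporters, some neighbours enter several pairs, and all these shares are a description.

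In 3 cases, lost reporters from different pools lay within 10 kb of each other. On chromosome 2, a pool D reporter at 67625808 and a pool C reporter at 67627472 lay 1664 bp apart, both on the minus strand. The first had 49 and 49 RNA reads at dox 0, 28 and 9 at dox 0.01 and 42 and 0 at dox 100. The second had 446 and 441, 184 and 219, and none at dox 100. This pair differed in level at dox 0 by more than the spread between cultures, −2.97 against −0.29, and both were at 0 at dox 0.1. On chromosome 11, a pool C reporter at 91644650 and a pool A reporter at 91652196 had levels of −3.38 and −3.11, and only the second had RNA at dox 100, with 0 and 108 reads. On chromosome 12, a pool C reporter at 30344848 and a pool A reporter at 30352504 had levels of −3.04 and −3.82 and none at dox 100.

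By chromosome, the share lost ran from 7.55% to 17.97%. It was highest on X, with 23 of 128 reporters, then on chromosome 3 with 72 of 426, or 16.9%, and chromosome 14 with 55 of 328, or 16.8%. It was lowest on chromosome 19, with 16 of 212, and chromosome 11, with 37 of 432, or 8.57%. The pools spread widely on X, at 18.5% ± 7.44 (SD, n = 4 pools), with the lowest pool at 8.57%, so X was not set apart from the autosomes, at 12.7%, beyond that spread. On chromosome 19 the pools were close together, at 7.63% ± 1.08, and on chromosome 11 at 8.41% ± 1.53. Among reporters of the lowest quartile of the dox 0 level the order changed, with 48.8% lost on chromosome 12, 43.3% on chromosome 3, 39.1% on X and 28.6% on chromosome 16. In windows of 5 Mb, 341 held at least 10 measurable reporters, and 57 of these held none that was lost. The highest share, 6 of 12 reporters from 3 pools, was on chromosome 3 from 140000001 to 145000000, followed by 6 of 13 from 4 pools on chromosome 6 from 20000001 to 25000000. Gene and chromatin annotation in mm9 was not used here.

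**Figure D5:**
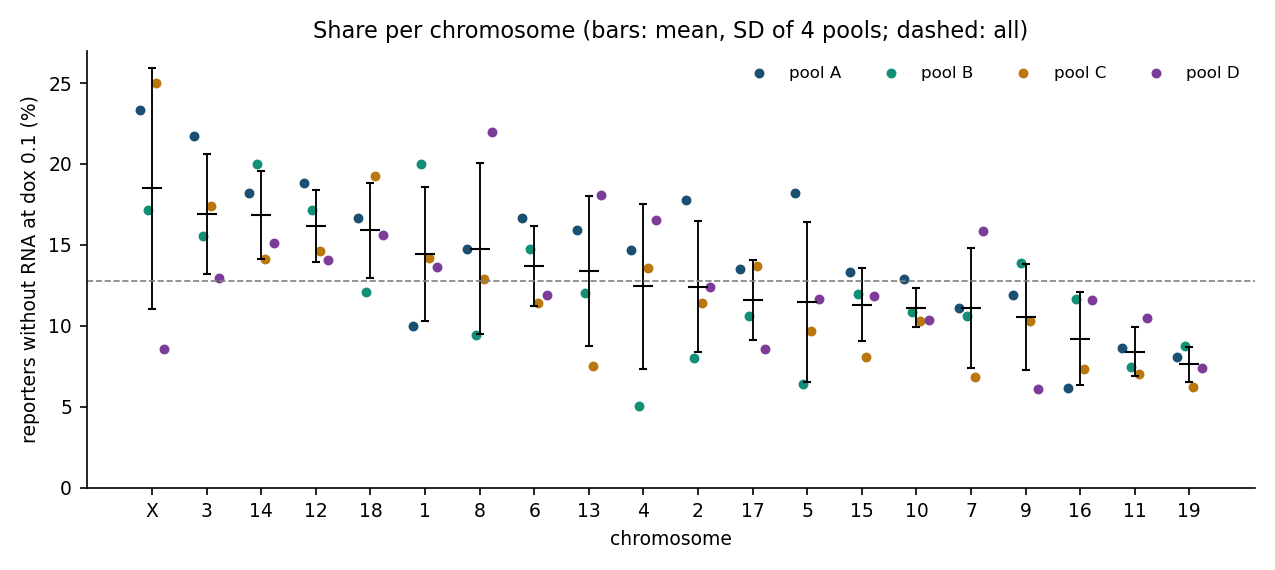
Share of measurable reporters without RNA at dox 0.1 (y axis, percent) on each chromosome (x axis, ordered by the pooled share; Y, with 1 measurable reporter, is left out). Dots are the 4 pools, black bars their mean and SD, and the dashed line the share over all chromosomes, 12.8%; the pools lie close together on chromosome 19 and far apart on X.

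Together the lost reporters took a small part of the RNA. They held 7.41% to 9.60% of the DNA reads at dox 0 and 1.21% to 1.72% of the RNA reads. Their share of the RNA reads was 0.614% to 0.872% at dox 0.01 and 0.0434% to 0.225% at dox 100, over 8 libraries each. DNA reads stayed at a share of 7.85% to 9.46% at dox 100 over 8 libraries.

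Against reporters that were lost a dose step later, the 924 had lower medians at both low doses and fewer reporters around them. The 1444 kept reporters with no RNA in either dox 100 culture had a median level of −0.64 at dox 0 and −0.96 at dox 0.01, against −2.92 and −3.93 in the 924. They had a mean of 1.501 other reporters within 100 kb, against 0.751, and their nearest reporter was at a median of 51.8 kb, against 111 kb. Reporters with RNA in 1 dox 0.1 culture lay between, with a mean of 1.09 within 100 kb, a median nearest distance of 75.2 kb and RNA at dox 100 in either culture for 29.6%. These sets were defined by RNA at dox 0.1 and 100, so their levels at other doses are given side by side without a test.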

How the data were processed

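RNA and DNA barcodes were counted in 64 libraries (4 pools, 4 doses, 2 cultures), and 16 further libraries of the 80 samples mapped the insertions by inverse PCR. The deposited values are unnormalized read counts per barcode, made by the authors from PCR products of cDNA or genomic DNA, per the file headers and the labels' protocols. The submitters' processing notes list Bowtie2 2.0 and mm9 but give neither a role, and how barcodes were called was not given in these sources. Columns of sample values left unused numbered 0.

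Reporters with at least 10 DNA reads in each DNA library of the pool were tested (10785). Per pool, edgeR 4.0.16 (R 4.3.3) fitted the 16 libraries and tested the assay-by-dose interaction, with TMM factors set separately for RNA and DNA. P-values were Benjamini-Hochberg adjusted per pool, with a threshold of 0.05. The SE of an edgeR change is its size divided by the square root of F. Alternatives were DESeq2 1.42.0, other scalings, DNA minimums, a culture block and left-out cultures. Levels, densities and shares were compared as medians or shares per pool in Python 3.11.15, with exact two-sided sign-flip permutation tests over 4 pools where the choice had not used the values. Both cultures come from 1 pool, so p-values within a pool measure technical spread.

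The cultures pair libraries by number, since each culture was spread over all doses per the labels. The differences between cultures 1 and 2 nevertheless correlated little between doses, with r from −0.0447 to 0.0901 for RNA and −0.0535 to 0.0527 for DNA.

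The reporters, sets and tests were chosen with earlier results of these data known. Named were the 10 lost reporters with the highest level at dox 0, those with RNA in both dox 100 cultures, the 3 largest changes each way at dox 0.01, the 5 largest called changes each way at dox 100 against 0.01, lost pairs within 10 kb and those nearest the thresholds; not all are printed.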

Additional observations from a re-analysis of the deposited data

Results flagged for a closer look

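In 2 of the 25 groups of pool values tested for outliers, 1 pool stood apart from the other 3 by Dixon's criterion. That criterion flags about 1 in 20 groups by chance, so 2 of 25 is near that rate. The median change of the lost reporters from dox 0 to 0.01, by library totals, was −1.05 in pool C and −0.99 to −0.98 in the others, a gap far smaller than the distance to the kept reporters. The difference of lost minus kept in the median number of reporters within 100 kb was −1.50 in pool D and −1 in each of the others, which are medians of whole numbers.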

How the results depend on the processing

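For the 6 pool-level comparisons the direction was the same under every alternative that gave a value other than 0; the density difference was 0 in the 10 kb window and with reporters chosen by culture 2 alone. No such test can pass 0.05 with 4 pools, so the p-values say nothing on stability. The number of lost reporters was 1629 with a DNA minimum of 10, 522 with 200, 523 with at least 50 RNA reads at dox 0, 1285 by culture 1 alone and 1859 by culture 2 alone. At dox 0.01 against 0, DESeq2's Wald test called 45 lost reporters lower where edgeR called 0. At dox 100 against 0.01, library totals gave 3 higher, and leaving out 1 culture at a dose gave 2 to 29; the cause was not tested. The value of the pool C reporter at 13422716 ranged from −1.59 to 8.54 over the left-out cultures, and that of the pool D reporter at 87589168 from −4.39 to 5.60; each turned without the dox 100 culture that held its only reads there. With the replicate block (culture number) the lost reporters called lower were 0 at dox 0.01 against 0, 742 at dox 100 against 0.01 and 820 at dox 0.1 against 0, and 4 were higher at dox 100. Of the named reporters' calls the block ended 3, the rise of the pool D reporter on chromosome 18 and 2 falls at dox 0.1 in the contrast of the choice; it changed no other of those calls and moved no count by over 1.5 times. The 2 alternatives on density added after seeing the data were the 1 Mb window within quartiles (−2.50) and means in place of medians (−1.20). A reporter with few DNA copies and a low level gives few reads, and 0 reads at dox 0.1 then bounds only a small fall, down to 3.44-fold.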
